A study of Homo sapiens with 3 samples.

Results

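The mRNAs described here encode 10 proteins that themselves bind AU-rich, GU-rich or stem-loop elements and set how long other mRNAs last: ELAVL1, HNRNPD, KHSRP, TIA1, TIAL1, PTBP1, CELF1, ZC3H12A, RC3H1 and RC3H2. They were taken by gene symbol, with every transcript that GENCODE 29 gives to these symbols, which made 120 transcripts of 181857 and 10 genes of 52992. All 10 genes were among the 14082 with a mean of at least 10 estimated counts over the libraries, and 54 of the 120 transcripts had at least 1 count in a library. The question was whether mRNAs of other decay and stability regulators were recovered with ZFP36L1, an RNA-binding zinc finger protein that also regulates mRNA decay.

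The RNA came from lysed J82 cells, an established line from human bladder cancer, grown to near confluence. The bait was glutathione S-transferase (GST) alone as the control, a GST fusion of wild-type ZFP36L1, or a GST fusion of the ZFP36L1-Ala mutant, whose substituted residues are not named in the labels. There was 1 library for each protein and none of untouched lysate, so no difference can be set against a replicate, and a ratio shows a share of a library and not an amount of RNA. Cells were lysed before the RNA was recovered, so the binding measured is to a GST fusion protein in lysate.

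AU-rich elements are stretches of A and U in the 3′ untranslated region (3′ UTR) that shorten the life of an mRNA when proteins of the ZFP36 family bind them and recruit deadenylases. Other proteins read the same or similar elements with other outcomes. ELAVL1 (HuR) mostly stabilises its targets, KHSRP and the HNRNPD proteins (AUF) mostly promote decay, and TIA1 and TIAL1 hold back translation. PTBP1 binds pyrimidine tracts and CELF1 binds GU-rich elements. ZC3H12A (Regnase) is an endonuclease that cuts inflammatory mRNAs at stem-loops, and RC3H1 and RC3H2 (the Roquin proteins) bind stem-loops and recruit the deadenylase complex. Many such regulators have long 3′ UTRs that carry elements of the kind they read.

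The sites that the ZFP36 family reads are shown first, since the members differed in them. The following stretches are 30 bases of the 3′ UTR, 5′ to 3′, from GENCODE 29 transcripts (GRCh38), with the core heptamer UAUUUAU in capitals. They come from the 7 members whose most counted protein-coding transcript held the heptamer, and each is the window with the most copies, or the first of equals.
ELAVL1: uUAUUUAUaccUAUUUAUgUAUUUAUUUAU
RC3H1: ugagggaauuuUAUUUAUagcgagaaauau
RC3H2: cuuaguuaacuUAUUUAUuucuauuuuaug
TIA1: cagauacaaugUAUUUAUuuaaaagauuca
TIAL1: gaaaaugaaaaUAUUUAUuuuaaaaauuga
PTBP1: aaggguguaaaUAUUUAUaauuuuuuauac
CELF1: gggguggagaaUAUUUAUuaccuaaauuau

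The ELAVL1 window (chr19:7961839-7961868, minus strand) held 4 overlapping or neighbouring copies, and the fifth copy of that 3′ UTR lay just upstream, at base 1604 after the stop codon. No other member had 2 copies within one 30-base window. The RC3H1 window lies at chr1:173935353-173935382 (minus), that of RC3H2 at chr9:122849198-122849227 (minus) and that of TIA1 at chr2:70212589-70212618 (minus). Those of TIAL1, PTBP1 and CELF1 lie at chr10:119575554-119575583 (minus), chr19:812008-812037 (plus) and chr11:47470161-47470190 (minus). The RC3H2 3′ UTR of 5071 bases held 5 copies spread from base 411 to base 3333, and the RC3H1 3′ UTR of 7507 bases held 2, at bases 3350 and 5021. TIA1, TIAL1, PTBP1 and CELF1 had 1 copy each, while HNRNPD, KHSRP and ZC3H12A had none.

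**Figure D1:**
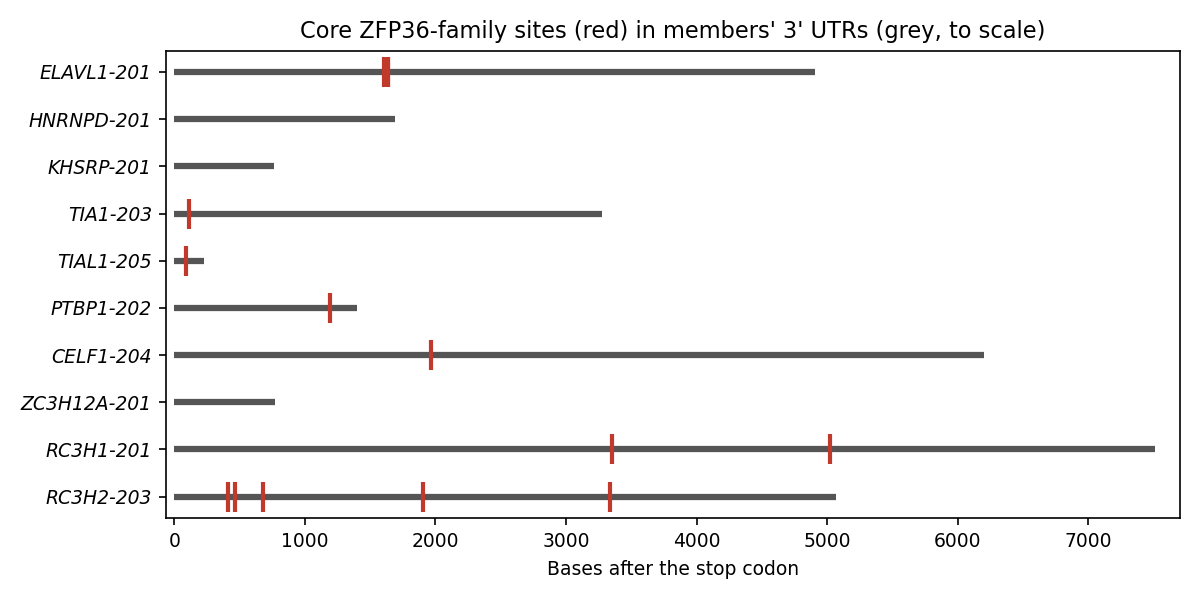
The 3′ UTR of the most counted protein-coding transcript of each member (grey bar, length in bases after the stop codon on the x axis) with each UAUUUAU site (red mark). The 5 sites of ELAVL1 sit together between bases 1604 and 1638, those of RC3H2 are spread over the first 3333 bases, and 3 members have none.

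Among 11695 measured genes with an annotated 3′ UTR, taken by the same rule, 32.5% held the heptamer, 69.6% held the shorter AUUUA and 8.67% the longer nonamer UUAUUUAUU. The nonamer occurred in ELAVL1 (1 copy) and RC3H2 (2 copies). AUUUA occurred 25 times in RC3H2, 21 times in RC3H1, 13 times each in ELAVL1 and TIA1 and 10 times in CELF1, and not at all in KHSRP or ZC3H12A. The GU-rich element that CELF1 reads (an 11-base repeat, sense strand) was found in 1.93% of genes and, among the members, once each in ZC3H12A and RC3H2. Members' 3′ UTRs varied in length. Those of RC3H1, CELF1, RC3H2, ELAVL1 and TIA1 were longer than those of 97.9%, 96.5%, 94.0%, 93.4% and 85.2% of genes, those of HNRNPD and PTBP1 than 65.1% and 58.8%, and those of ZC3H12A, KHSRP and TIAL1 than 40.6%, 40.5% and 13.2%. A match of letters is not evidence that a site was bound.

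Compared with GST, the wild-type protein recovered a larger share of RC3H1, RC3H2 and PTBP1 mRNA and a smaller share of HNRNPD mRNA. A gene was called higher or lower when scaled counts differed at least 2-fold and the 95% interval of the ratio, which covers counting error only, excluded 1. Among all 14082 genes 25.5% were called higher and 34.2% lower, so 3 of 10 members higher lies near the background share, and 1 of 10 lower lies below it. The members' median log2 ratio was 0.42, against -0.04 for all genes. The run code that the deposited tables carry differs between GST and the ZFP36L1 libraries, so run and GST cannot be told apart in either comparison with GST.

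With the Ala mutant no member was called higher than with GST, where 9.0% of all genes were, and HNRNPD alone was called lower, where 5.13% were. For all genes that balance turned with the scaling, to 6.67% higher and 7.23% lower with total counts, and to 5.52% and 8.78% with totals that left out the most abundant genes. The members' median was -0.46, against 0.04 for all genes. Every member but TIAL1 lay below a ratio of 1, from HNRNPD, above 5.01% of all genes, to PTBP1, above 37.6%. TIAL1 lay above 66.7%. The other scalings and minimum counts move all genes by the same factor, and the share of all genes below 1 was not counted. With a cubic fit on GC content and length removed, ELAVL1 turned above 1 (log2 0.04, or 0.01 with the most counted transcript). RC3H1 turned too (log2 0.21, or 0.16). Between wild type and mutant, 4 members were called higher with the wild type (RC3H1, RC3H2, PTBP1 and TIA1), against 30.1% of all genes, and none lower, against 36.1%. These comparisons share libraries and are not independent of each other. Mitochondrial genes took 10.6% of the counts with GST, 15.5% with wild type and 7.53% with the mutant, and library totals were 18348691 to 19092618 counts after joining to genes. Epithelial KRT7, KRT8, KRT18 and EPCAM and mesenchymal VIM, FN1, ZEB1 and CDH2 reached 1 TPM in at least 1 library. Epithelial and urothelial KRT5, KRT13, KRT19, KRT20, TP63, CDH1, GATA3 and the uroplakins stayed under 1 TPM in every library. Mesenchymal SPARC, COL1A1 and COL1A2 did so too, and no leukocyte, erythroid or hepatocyte marker reached 1 TPM in any.

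**Figure D2:**
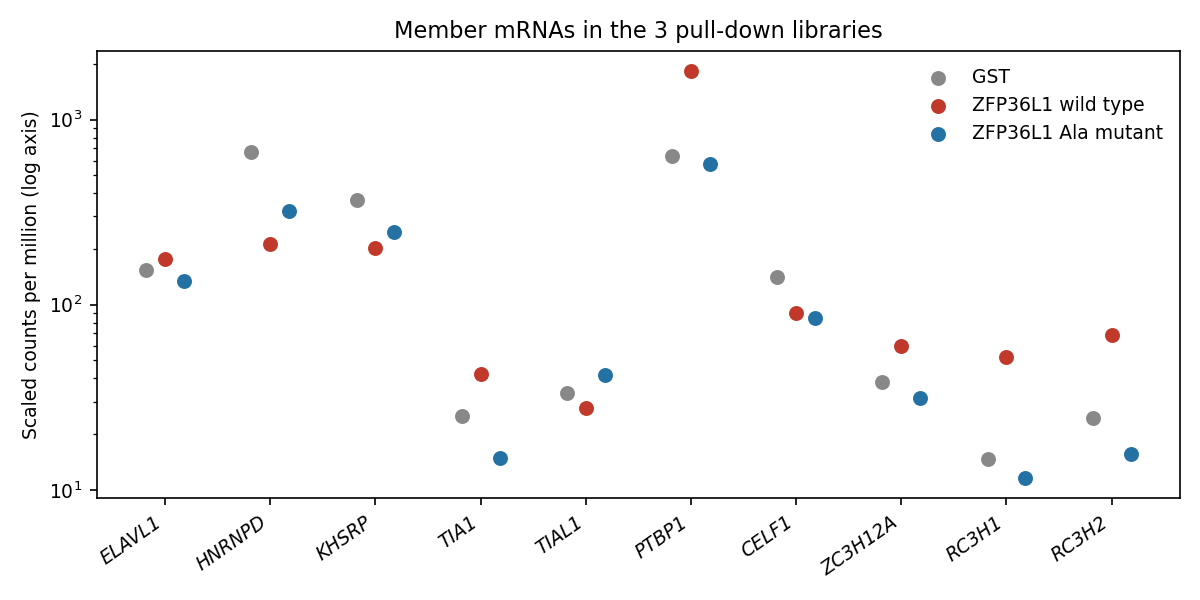
Scaled counts (CPM, log axis) for each member in the GST (grey), wild-type (red) and Ala mutant (blue) libraries, 1 point per library. PTBP1 stands highest with wild type at 1830, RC3H1 and RC3H2 have their red point well above both others, and HNRNPD has its highest point with GST at 669.

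With the main scaling the Roquin mRNAs showed the highest wild-type to mutant ratios of the 10. RC3H1 (ENSG00000135870.11, chromosome 1, minus strand, transcripts from 173931214 to 174022297) had 277 estimated counts with GST, 1046 with wild type and 199 with the mutant. The wild-type library thus stood apart and the other two lay close together. RC3H1 was 3.56-fold higher than with GST (log2 1.83, 1.64 to 2.03) and 4.5-fold higher than with the mutant (log2 2.17, 1.95 to 2.40), while mutant over GST was log2 -0.34 (-0.61 to -0.07). Its ratio to GST exceeded that of 92.7% of all genes.

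RC3H2 (ENSG00000056586.15, chromosome 9, minus strand, 122844556 to 122905341), which encodes the paralogous Roquin protein, had 462, 1377 and 269 counts in the same order. Again only the wild-type library was high. It was 2.81-fold higher than with GST (log2 1.49, 1.34 to 1.65) and 4.38-fold higher than with the mutant (log2 2.13, 1.94 to 2.33), and mutant over GST was log2 -0.64 (-0.86 to -0.42).

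Both Roquin mRNAs are AU-rich, and across 14081 genes the ratio of wild type to GST went down as GC content went up (Spearman rho -0.60, a description across genes, which are not independent). The most counted transcripts had 38.1% GC for RC3H1 and 37.8% for RC3H2, against a median of 47.9%. With a cubic fit on GC content and length of the most counted transcript removed, wild type over GST was log2 0.75 for RC3H1 and 0.34 for RC3H2, and wild type over mutant was 0.58 and 0.44, so that none of these calls held. For wild type over mutant PTBP1 (log2 3.44), ZC3H12A (3.40) and KHSRP (1.79) then stood above both Roquin mRNAs. With the planned fit, on the transcript of highest mean TPM, RC3H1 was at 0.64 over GST and RC3H2, for which that rule took a short model, at 3.16. How much of either ratio belongs to base composition was not tested.

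Most RC3H2 counts fell on 3 transcripts. The full-length coding transcript RC3H2-203 (9248 bases) had 349 counts with GST, 986 with wild type and 172 with the mutant, a log2 ratio of 1.41 (1.24 to 1.60) to GST. RC3H2-208, a non-coding model of 547 bases and 54.3% GC with no UAUUUAU, had 21.5, 293 and 39.6 counts and stood at log2 3.69 (3.08 to 4.43) over GST and 1.05 (0.27 to 1.91) for mutant over GST. The short coding model RC3H2-204 (666 bases) had 47.1, 38.7 and 26.8 counts, log2 -0.35 (-1.0 to 0.29) for wild type over GST. The short models weigh heavily on values per length: RC3H2 had 10.5 TPM (a level per transcript length) with GST and 45.2 with wild type, and RC3H2-208 alone gave 78.1% of the latter. RC3H1 counts, by contrast, were assigned almost wholly to RC3H1-201 (99.3% or more in each library). RC3H1-201 has no 31-mer (stretch of 31 bases) of its own, which leaves that assignment to kallisto's estimate.

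**Figure D3:**
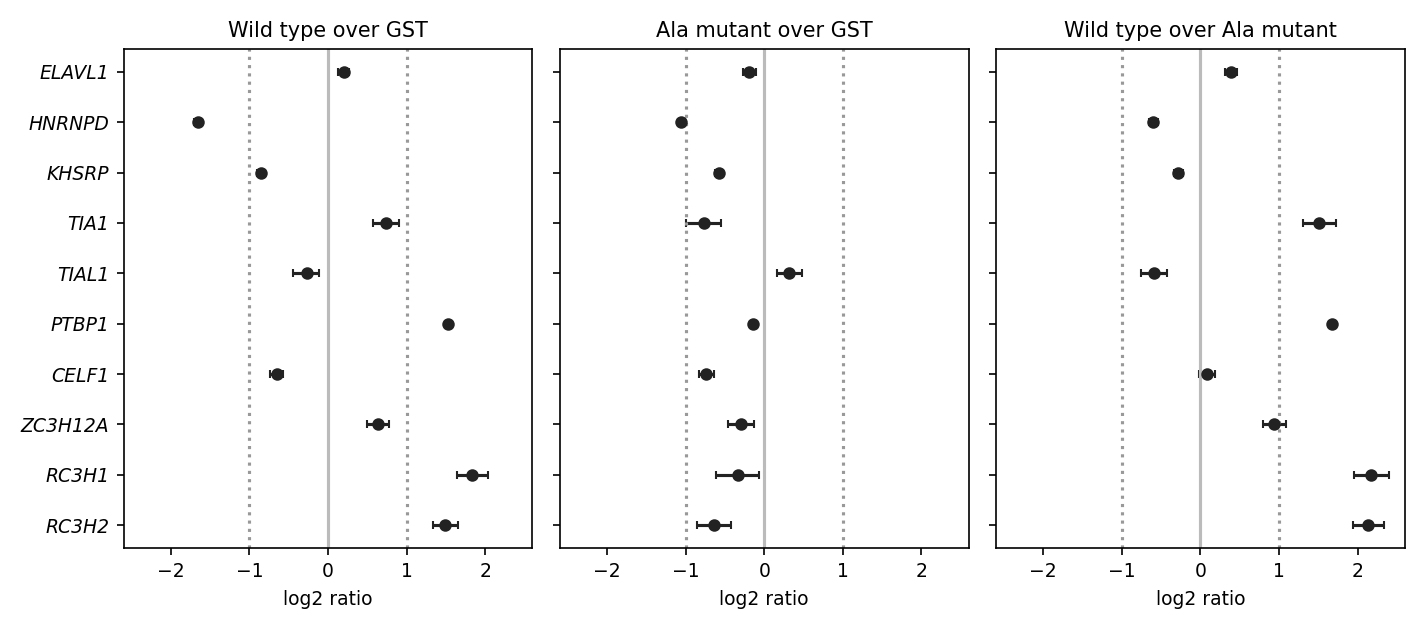
Log2 ratio of scaled counts (x axis) for each member in the 3 comparisons, with 95% counting intervals as bars and dotted lines at 2-fold. RC3H1, RC3H2 and PTBP1 lie beyond 2-fold to the right in both comparisons of the wild type, TIA1 only against the mutant at 1.51, and HNRNPD lies beyond 2-fold to the left in both comparisons with GST.

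PTBP1 mRNA was the most abundant of the set with wild-type ZFP36L1. PTBP1 (ENSG00000011304.19, chromosome 19, plus strand, 797075 to 812327), a splicing regulator that also binds 3′ UTRs, had 11980 counts with GST, 36554 with wild type and 9829 with the mutant. GST and mutant lay together and the wild type above both. It was 2.88-fold higher than with GST (log2 1.53, 1.5 to 1.56) and 3.19-fold higher than with the mutant (log2 1.67, 1.64 to 1.70), with mutant over GST at log2 -0.14 (-0.18 to -0.11).

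PTBP1 differed from the Roquin mRNAs in composition, with 57.6% GC, above that of 80.7% of genes. Removing the GC and length fit raised its ratio to GST to log2 2.98, as the fitted value at that composition was below 0. Nearly all of its counts fell on PTBP1-202: 98.2% with GST, 36546 of 36554 counts with wild type and 97.9% with the mutant. That model is 2201 bases long in the deposited tables and 3069 in GENCODE 29, a difference of 868 bases whose place in the transcript the tables do not show. The single UAUUUAU of PTBP1 lies 1193 bases after the stop codon of a 1396-base 3′ UTR, and whether the quantified sequence held it is therefore unknown. Only 4 of its 3039 31-mers (0.132%) occur in no other GENCODE transcript, so the division between PTBP1 transcripts is uncertain while the gene sum is less affected, with 3.59% of its 31-mers shared with the pseudogene PTBP1P.

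ZC3H12A, the endonuclease that acts on stem-loops, leaned the same way, short of 2-fold with the main scaling. ZC3H12A (ENSG00000163874.10, chromosome 1, plus strand, 37474552 to 37484379) had 725, 1194 and 535 counts with GST, wild type and mutant, the wild type being the highest. Its ratio to GST was log2 0.64 (0.50 to 0.77) and its ratio to the mutant was log2 0.93 (0.79 to 1.09). The latter was called higher with total counts (1.1), totals without the most abundant genes (1.26), TPM (1.37) and no minimum count (1.0). With the GC and length fits removed it was called too (3.34 and 3.40). It stayed below 2-fold with DESeq2 size factors (0.95), a minimum of 100 counts (0.90) and protein-coding transcripts only (0.85). Mutant over GST was log2 -0.30 (-0.46 to -0.13). With 61.1% GC and no UAUUUAU or AUUUA, it had the highest GC content of the 10, and with the GC and length fit removed its ratio to GST was log2 2.61. All but 1 of its counts came from ZC3H12A-201.

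**Figure D4:**
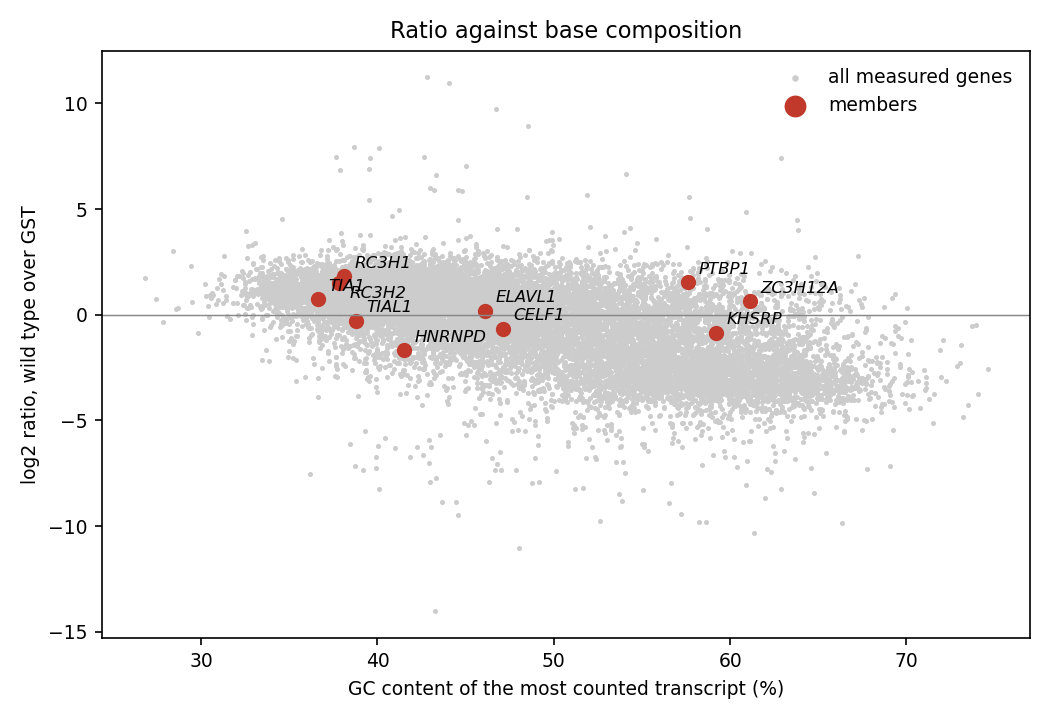
Log2 ratio of wild type over GST against GC content of the most counted transcript, for all measured genes (grey) and the members (red). The grey cloud slopes downward, RC3H1, RC3H2 and TIA1 sit at its AU-rich end, and PTBP1 (57.6% GC) and ZC3H12A (61.1% GC) sit above most genes of their composition.

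ELAVL1, whose 3′ UTR held the cluster printed above, differed little between the libraries. ELAVL1 (ENSG00000066044.14, chromosome 19, minus strand, 7958579 to 8005659) had 2909 counts with GST, 3530 with wild type and 2308 with the mutant. The 3 values lay within a narrow range, the wild type highest. The log2 ratio was 0.20 (0.13 to 0.27) to GST, above that of 54.7% of genes, and 0.39 (0.31 to 0.47) for wild type over mutant, with mutant over GST at -0.19 (-0.27 to -0.11). The full-length ELAVL1-201 (6015 bases, 3′ UTR of 4904 bases), the model with the 5 sites, took 97.3%, 99.4% and 88.9% of the counts. Counts are given per transcript model, so whether reads covered the sites is unknown. On that transcript alone wild type over GST was log2 0.23 (0.16 to 0.30) and wild type over mutant 0.55 (0.47 to 0.63). With the GC and length fit on the most counted transcript removed, ELAVL1 turned to log2 -0.21 over GST and to -0.22 for wild type over mutant.

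The translational repressors TIA1 and TIAL1, close paralogues, differed in the direction of their scaled ratios. With the GC and length fit removed that difference held only for mutant over GST (log2 -0.18 for TIA1 and 0.48 for TIAL1). TIA1 (ENSG00000116001.15, chromosome 2, minus strand, 70209444 to 70248660) had 476 counts with GST, 840 with wild type and 253 with the mutant. The wild type was highest and the mutant lowest, with GST between them. Wild type over GST was log2 0.74 (0.57 to 0.90), short of 2-fold, mutant over GST was log2 -0.77 (-1.0 to -0.55), and TIA1 was 2.84-fold higher with wild type than with the mutant (log2 1.51, 1.3 to 1.72). That call ended, and the direction turned, with the GC and length fit removed (log2 -0.28, the same sign as TIAL1 at -1.15). Wild type over GST turned too, to log2 -0.47, the same sign as TIAL1 at -0.68. TIA1 had 36.6% GC, the lowest of the 10.

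TIAL1 (ENSG00000151923.17, chromosome 10, minus strand, 119571802 to 119597029) had 630, 552 and 714 counts. The wild type was lowest here, at log2 -0.27 (-0.44 to -0.11) to GST and -0.59 (-0.76 to -0.43) to the mutant, and mutant over GST was log2 0.32 (0.16 to 0.48), the highest among the members. Wild type over mutant passed 2-fold lower with protein-coding transcripts only (log2 -1.25) and with the fit removed (log2 -1.15). With TPM, by contrast, it was log2 -0.08, and wild type over GST was log2 0.02. Most counts (51.9%, 66.3% and 57.7%) fell on TIAL1-207, a 907-base model annotated as a processed transcript, which stood at log2 0.08 (-0.14 to 0.30) over GST. The coding TIAL1-205 had 174, 28 and 185 counts, log2 -2.70 (-3.35 to -2.14) for wild type over GST and -2.93 (-3.58 to -2.37) for wild type over mutant. TIAL1-203, the coding model with the long 3′ UTR, had 80.6, 121 and 101 counts, log2 0.49 (0.08 to 0.92) over GST. It is 2187 bases long in the tables and 5072 in GENCODE 29, a difference of 2885 bases. TIAL1-205 has no 31-mer of its own, which leaves its division from the other models to kallisto's estimate.

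The division between TIA1 transcripts was less certain still. TIA1-203 and TIA1-205, which differ by 14 bases in length, had 471 and 0.279 counts with GST, 511 and 317 with wild type, and under 1 and 241 with the mutant. The counts moved wholly from one model to the other between GST and mutant. Since 2 and 0 of their 31-mers respectively occur in no other transcript, these values were not read as a change of isoform, and the gene sums are the values to use.

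HNRNPD was the member lower with both ZFP36L1 proteins. HNRNPD (ENSG00000138668.18, chromosome 4, minus strand, 82352498 to 82374503) had 12612 counts with GST, 4229 with wild type and 5496 with the mutant. GST stood apart and the 2 fusion proteins lay closer together. HNRNPD was 3.16-fold lower with wild type (log2 -1.66, -1.71 to -1.61) and 2.08-fold lower with the mutant (log2 -1.06, -1.10 to -1.01) than with GST, with wild type over mutant at log2 -0.60 (-0.66 to -0.54). A lower ratio was found for 27.5% of genes in wild type over GST and for 5.01% in mutant over GST. With the fit removed mutant over GST was log2 -0.98, short of 2-fold.

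The 2 most counted HNRNPD transcripts differed between the comparisons. HNRNPD-211, a 1089-base model annotated for nonsense-mediated decay (the route that removes mRNAs with early stop codons), had 8844, 1828 and 3601 counts. It took 70.1% of the gene's counts with GST, 43.2% with wild type and 65.5% with the mutant, and was 5.12-fold lower with wild type than with GST (log2 -2.36, -2.43 to -2.28), with mutant over GST at log2 -1.16 (-1.21 to -1.1). Across all transcripts, models of this annotation held 4.40%, 3.29% and 4.92% of the counts. The full-length coding HNRNPD-201 (3033 bases, 3′ UTR of 1687 bases with 2 AUUUA and no UAUUUAU) had 3627, 2303 and 1436 counts, log2 -0.74 (-0.81 to -0.66) for wild type over GST, -1.20 (-1.29 to -1.11) for mutant over GST and 0.46 (0.36 to 0.55) for wild type over mutant. The ratios of these transcripts were thus close to each other for mutant over GST and apart for wild type over GST. With protein-coding transcripts only, HNRNPD was at log2 -0.77 and -0.79 over GST, called in neither comparison, and at 0.02 for wild type over mutant. HNRNPD-211 shares 8.03% of its 31-mers with the pseudogene HNRNPDP1 and has 5.10% found in no other transcript.

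**Figure D5:**
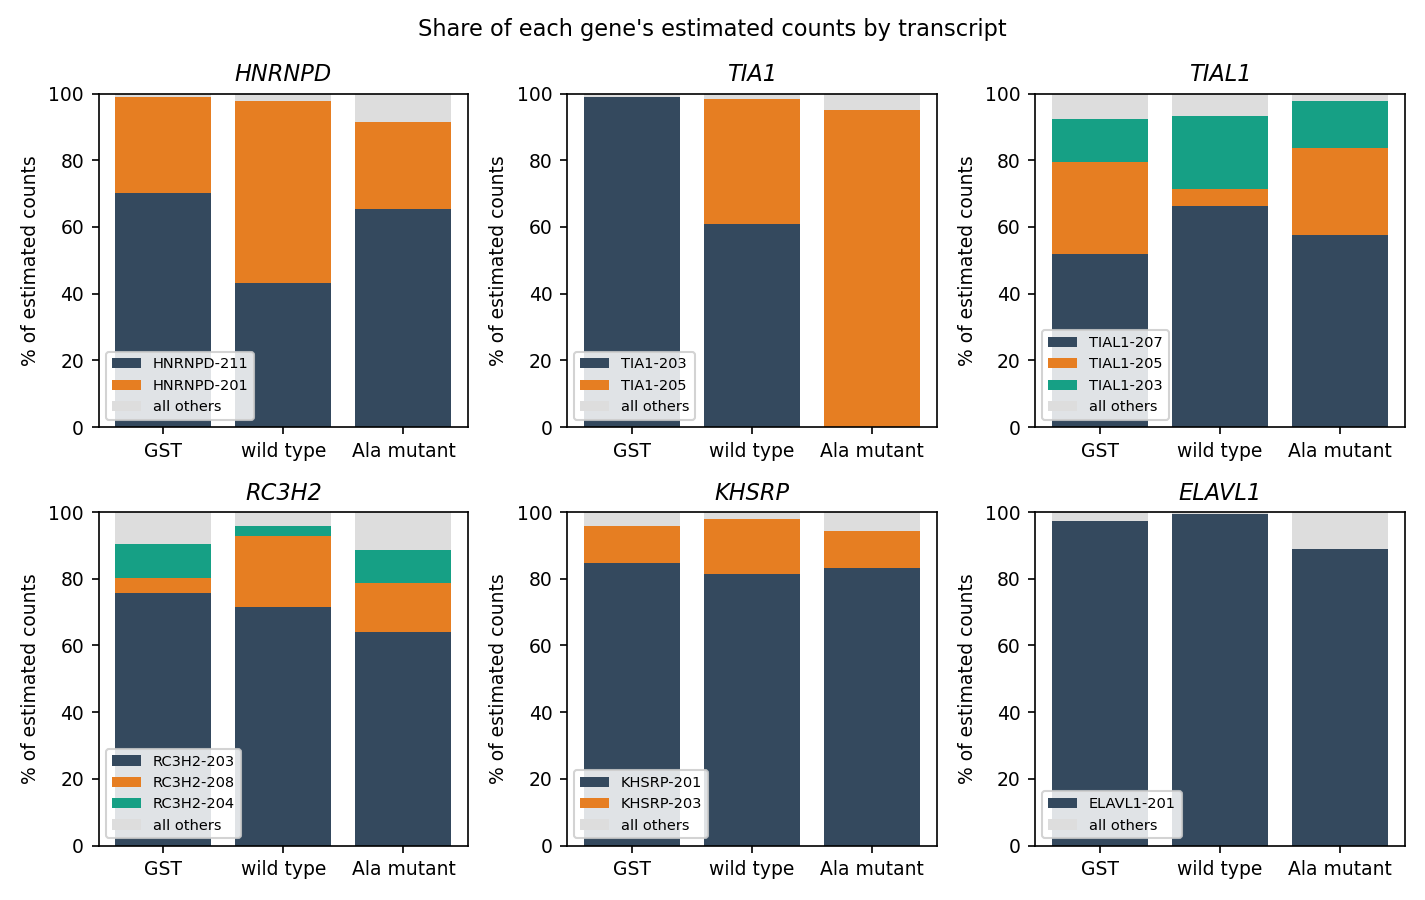
Percentage of each gene's estimated counts (y axis) assigned to the transcripts that held at least 10% in any library or the most counts, in the GST, wild-type and Ala mutant libraries, for the 6 members drawn (all other transcripts in light grey). With wild type the share of HNRNPD-211 is smaller and that of HNRNPD-201 larger than with GST, though both have fewer counts. TIA1-203 and TIA1-205 trade places between GST and mutant, and RC3H2-208 holds 4.64% with GST and 21.3% with wild type.

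KHSRP and CELF1 had lower shares with both ZFP36L1 proteins than with GST, short of 2-fold. KHSRP (ENSG00000088247.17, chromosome 19, minus strand, 6413348 to 6424794), the decay-promoting KH-domain protein, had 6920, 4056 and 4214 counts with GST, wild type and mutant. The ratio to GST was log2 -0.85 (-0.91 to -0.80) with wild type and -0.57 (-0.63 to -0.52) with the mutant. Wild type over mutant was log2 -0.28 (-0.34 to -0.22) and has no settled direction: it was 0.05 under one scaling, 0.51 with TPM, and 1.79 with the GC and length fit on the most counted transcript removed (3.36 with the planned fit), where it was called higher. With those fits removed wild type over GST turned as well, to 0.83 and 1.96, the latter called higher, while mutant over GST stayed negative at -0.96 and -1.41, the latter called lower. KHSRP-201 (2993 bases, 59.2% GC) took 81.5% to 84.6% of the counts, whereas the 379-base KHSRP-203 gave 59.3% to 72.5% of the TPM. KHSRP shares 5.87% of the 31-mers of KHSRP-201 with the pseudogene KHSRPP1.

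CELF1 (ENSG00000149187.18, chromosome 11, minus strand, 47465933 to 47565569), which promotes decay of mRNAs with GU-rich elements, had 2679, 1805 and 1458 counts. The GST library was highest and the other two were close. The ratio to GST was log2 -0.65 (-0.74 to -0.57) with wild type and -0.74 (-0.83 to -0.64) with the mutant, and wild type over mutant was log2 0.09 (-0.02 to 0.19), an interval that includes no difference, and turned to -0.36 with the GC and length fit removed. CELF1-204, with a 3′ UTR of 6198 bases, took 91.4% or more of the counts in each library. In TPM, CELF1 was more than 2-fold lower with both proteins, where a 393-base model, CELF1-207 (named after its values were seen), held 75.3% of the level with GST, 49.3% with wild type and 67.8% with the mutant.

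By level per length, the order with GST was HNRNPD (450.0 TPM), KHSRP (257), PTBP1 (241), CELF1 (56.3), TIAL1 (26.7), ELAVL1 (24.1), ZC3H12A (12.0), RC3H2 (10.5), TIA1 (4.70) and RC3H1 (1.04). With wild type PTBP1 came first (802 TPM), before KHSRP (205) and HNRNPD (126), and RC3H2 stood in the fourth place instead of the eighth. With the mutant the leading member was PTBP1, before HNRNPD (176 TPM) and KHSRP (144), and RC3H1 was last in all 3 libraries. With 1 library each there is no spread by which neighbours such as KHSRP and PTBP1 with GST, or TIAL1 and ELAVL1, could be separated. These levels lean on the short models named above for HNRNPD, KHSRP, CELF1, TIAL1 and RC3H2.

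Among 9150 protein-coding genes with a mean of at least 100 counts, the pattern of a member is its pair of log2 ratios to GST, and likeness is the distance between such pairs. HNRNPD had the least common pattern, with 11 genes (0.12%) within 0.25 on both ratios, the nearest being LIG3 at a distance of 0.13. CELF1 (64 genes, nearest CPSF6) and KHSRP (81 genes, nearest PVR) followed. PTBP1 had the most common pattern with 488 genes (5.33%) in its window, nearest YWHAQ, and ZC3H12A had 467, nearest VPS37C. ELAVL1 had 367 (nearest GOT2), RC3H2 330 (DPY30), RC3H1 288 (ZFAND1), TIA1 265 (NT5E) and TIAL1 201 (GNA11).

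Relatives of the members were listed by family, and 10 of 18 were measured. Of these 4 were called higher with wild type than with GST and none lower, against 25.5% and 34.2% of all genes, with a median log2 ratio of 0.90 against -0.04. Over the mutant 7 of 10 were called higher, against 30.1% of all genes. Across all genes wild type over mutant went down as GC content went up (Spearman rho -0.68). Neither the relatives nor the other regulators below were examined with the GC and length fit removed. ZC3H12C, from the Regnase family, had 84, 337 and 63 counts with GST, wild type and mutant (log2 1.92 over GST, 1.57 to 2.28). ZC3H12B (23, 70 and 17 counts) and the neuronal ELAVL2 (13, 40 and 7 counts) tied at log2 1.5 on few counts. At the other end FUBP1, a relative of KHSRP, stood at log2 -0.79 (-0.93 to -0.65) and HNRNPA0 at -0.38 (-0.45 to -0.30). The 8 relatives not measured, such as ELAVL4 and most CELF genes, had at most 6 counts in any library.

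Of 34 other regulators of mRNA stability 33 were measured, 10 of them called higher and 7 lower for wild type over GST, at a median log2 ratio of 0.32. The shares over all genes were 25.5% and 34.2%, so the higher count lies near the background and the lower count below it. The highest were the mRNAs of the ZFP36 family itself, ZFP36L1 (log2 3.48) and ZFP36 (log2 2.09), so the highest member, RC3H1 at 1.83, lay below both. ZFP36L1 is also the bait, and whether all its counts came from cellular mRNA was not tested. In TPM it stood at 42.0 with GST, 1630 with wild type and 30.2 with the mutant. The lowest were NCL (nucleolin, log2 -2.98) and HNRNPL (log2 -2.81), both below HNRNPD at -1.66. With the mutant none of the 33 was called higher than with GST, where 9.0% of all genes were, and 3 were called lower, where 5.13% were, at a median of -0.22.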

How the data were processed

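The authors deposited 1 table per pull-down (GST, GST-ZFP36L1 wild type, GST-ZFP36L1-Ala) with, per the file headers, the estimated count and TPM of each of 196354 transcripts. The estimated counts were made with kallisto, and hg19 and DESeq2 are also named, per the submitters' processing notes. The sources used here name no versions, transcript set or read filters. Transcripts were joined by identifier to GENCODE 29 (GRCh38), which matched 92.62%. The deposited and GENCODE lengths were equal for 93.17% of them. The unmatched transcripts held 3.79% to 4.20% of the counts and were left out.

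Estimated counts were summed per gene, rounded, and scaled by TMM (edgeR 4.0.16) over genes with a mean of at least 10 counts. Log2 ratios used a prior count of 0.5. Intervals are exact Clopper-Pearson 95% intervals on the division of 2 libraries' counts. They cover counting error only, not the assignment of reads to transcripts. With 1 library per group no p-value was computed. Transcripts with at least 10% of a gene's counts in any library, or the most counts, are named. From the other lists the 2 highest and 2 lowest are named. The ratio and interval calculation was run on simulated counts of known depth with counting error only. That run tested neither the scaling, the assignment of reads to transcripts nor the spread between libraries. Alternatives were scaling to total counts, to totals without the most abundant genes or by DESeq2 1.42.0 size factors, TPM with a pseudocount of 0.5, other minimum counts, protein-coding transcripts only, and a fit on GC content and length. Site counts in the text use the most counted protein-coding transcript, and the GC fit quoted there the most counted transcript. Both were chosen after seeing the data, since the planned rule (highest mean TPM) picked short models. The members and lists were chosen with earlier results of these data known.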

Additional observations from a re-analysis of the deposited data

How the results depend on the processing

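The 3 members called higher than with GST were PTBP1, RC3H1 and RC3H2 under the 5 other scalings and minimum counts, with TPM and with protein-coding transcripts only. Under these settings 15.6% (no minimum count) to 28.5% (totals without abundant genes) of all genes were called higher. After subtracting the GC and length fit the members called higher were KHSRP, PTBP1, ZC3H12A and RC3H2, against 22.0% of all genes. With the fit on the most counted transcript they were PTBP1 and ZC3H12A, against 21.8%. Over the mutant, the members called higher with the first fit were KHSRP, PTBP1, ZC3H12A and RC3H2, against 23.2% of all genes. With the second they were KHSRP, PTBP1 and ZC3H12A, against 23.0%. TIA1 and RC3H1 were thus lost under both fits and RC3H2 under the second. Without a fit, ZC3H12A joined the 4 called over the mutant, making 5, with total counts, totals without abundant genes, TPM and no minimum count. The share of all genes called higher was 33.6%, 36.8%, 32.3% and 19.2% in that order. ELAVL1 turned to -0.29 and -0.21 over GST and to -0.33 and -0.22 over the mutant, and TIA1 over GST to -0.53 and -0.47. For mutant over GST, ELAVL1 turned to 0.04 and 0.01 and RC3H1 to 0.21 and 0.16. The lower calls were less stable. With TPM, 2 members (HNRNPD and CELF1) were lower in both comparisons with GST. Of all genes 28.6% were lower with wild type and 5.18% with the mutant. With protein-coding transcripts only, 0 members were lower in either, and 1 (TIAL1) was lower with wild type than with the mutant. The shares of all genes were then 36.1% and 5.88% over GST, and 38.1% for wild type over mutant. With the GC and length fit removed, 2 members (KHSRP and RC3H2) were lower with the mutant than with GST. Another 2 (HNRNPD and TIAL1) were lower with wild type than with the mutant. With the fit on the most counted transcript, the counts were 0 and 1 (TIAL1). The shares of all genes were 4.34% and 23.5% with the first fit, and 4.21% and 23.3% with the second. TIA1 in wild type over mutant turned from log2 1.51 to -0.37 with the first fit and -0.28 with the second. The cause was not tested, except that TPM and protein-coding sums weigh short or non-coding models differently by construction. The planned rule for the 3′ UTR found UAUUUAU in 6 members, and both other rules found it in 7, the addition being RC3H2. The all-gene median shifted with total counts by -0.14 in mutant over GST and by 0.17 in wild type over mutant, and with totals without abundant genes by 0.11 in wild type over GST, -0.21 in mutant over GST and 0.32 in wild type over mutant. Among all genes, the latter turned the balance of wild type over mutant to 36.8% higher and 32.8% lower. No paired analysis was possible because each group has 1 library.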
